A study of Mus musculus with 36 samples.

Results

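Cytosolic ribosomal protein genes were followed in sorted mouse eosinophils. The members are all genes whose symbol is Rpl or Rps with a number (pseudogenes and Rps6k kinases left out), plus Fau, Rpsa, Rplp0, Rplp1 and Rplp2. The rule found 81 members among the 9844 genes of the tissue table and the same 81 among the 8001 genes of the sorted-cell table. Of these, 48 belong to the large subunit and 33 to the small subunit.

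The cytosolic ribosome has a small subunit, which reads the mRNA, and a large subunit, which joins amino acids. Each ribosome is thought to carry most of these proteins in a single copy, so cells make them in step and degrade the excess. Their mRNAs begin with a run of pyrimidines (the TOP element) through which the kinase complex mTORC1 and the RNA-binding protein Larp1 control their translation and storage. Myc and RNA polymerase I drive the making of ribosomes, which assembly factors build in the nucleolus. Eosinophils are granulocytes that form in bone marrow, travel in blood and settle in barrier tissues such as the gut.

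The tissue libraries held total eosinophils of wildtype C57BL/6 mice, 8 to 12 weeks old, male and female pooled, at steady state. They came from lung (n = 3), skin (n = 3), colon (n = 3), small intestine (n = 4), bone marrow (n = 3), blood (n = 4) and spleen (n = 4), 24 libraries in all. A further 11 libraries held small intestine eosinophils of C57BL/6 mice with the NMUR1-TdT reporter, 5 of Nmur1 positive and 6 of Nmur1 negative cells; Nmur1 is a neuromedin U receptor. The labels do not give the reporter's construct and do not say whether each library was a separate animal; p-values therefore measure only how libraries differ, which may be technical. Smart-seq2 amplifies whole transcripts as cDNA. Values are TPM, a share of all transcripts that is corrected for their length, and the read depth is unknown. Nmur1 itself was at 40.8 ± 13.2 TPM in positive libraries (SD, n = 5) and 7.32 ± 5.03 TPM in negative libraries (SD, n = 6), the direction the labels give. The eosinophil genes Siglecf, Ccr3 and Il5ra were present in every tissue (means of 119 to 296, 310 to 1288 and 27.7 to 89.7 TPM), while Epx, the eosinophil peroxidase gene, was at 0 in colon.

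Ribosomal protein mRNA formed a large part of every library, less in skin, colon and small intestine than in the other 4 tissues. As a share of the deposited TPM, the 81 members took 18.5, 18.6 and 20.1% in lung, 9.39, 9.72 and 12.7% in skin, 10.9, 10.3 and 10.3% in colon and 11.4, 11.7, 12.3 and 11.4% in small intestine. They took 17.01, 18.7 and 19.2% in bone marrow, 18.2, 19.5, 20.9 and 17.6% in blood and 21.997, 20.8, 18.9 and 21.1% in spleen. Every skin, colon and small intestine library lay below every library of the other 4 tissues, and lung, also a barrier tissue, lay among marrow, blood and spleen. One skin library, replicate 4, was higher than the other 2, and the skin mean was 9.56% without it. In bulk libraries, fewer cells of a type and less RNA per cell cannot be told apart, and TPM shows shares and not RNA per cell.

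Other abundant transcripts differed along the same tissues. The single gene Retnlg, a resistin-like gene known from mouse neutrophils, averaged 8.04% of TPM in lung, 7.20% in blood and 6.70% in spleen. It averaged 0.882% in skin, 1.44% in colon, 0.804% in small intestine and 2.06% in bone marrow. In these tissues other than marrow, it made up most of the summed level of 13 measured neutrophil markers. The other 12 summed to 471 to 572 TPM in lung, 188 to 231 TPM in skin, 394 to 428 TPM in colon, 529 to 591 TPM in small intestine, 50813 to 59144 TPM in bone marrow, 484 to 659.7 TPM in blood and 1011 to 9017 TPM in spleen, so without Retnlg the lung and blood ranges overlapped that of small intestine. Of the defining markers, S100a8 averaged 16464 TPM in bone marrow, 5.81 TPM in lung and 7.12 TPM in blood and was at 0 in colon, where Camp, Ngp, Elane, Mpo, Prtn3 and Ctsg were also at 0; Ly6g, Camp, Elane and Ctsg were at 0 in skin and Ly6g in small intestine. The 394 to 428 TPM in colon therefore came from markers of the list other than these, so not all were absent there. In lung and blood too, S100a8 was a small part of the sum. Levels of the markers that made up these sums are not given here. The part of these markers in the ribosomal shares was not tested. Red cell transcripts reached 39194 to 118890 TPM in blood libraries. Without haemoglobin genes in the total, the ribosomal share averaged 19.4% in lung, 20.96% in blood and 21.2% in spleen, and blood (20.4% to 21.9%) overlapped spleen (19.9% to 22.5%).

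**Figure D1:**
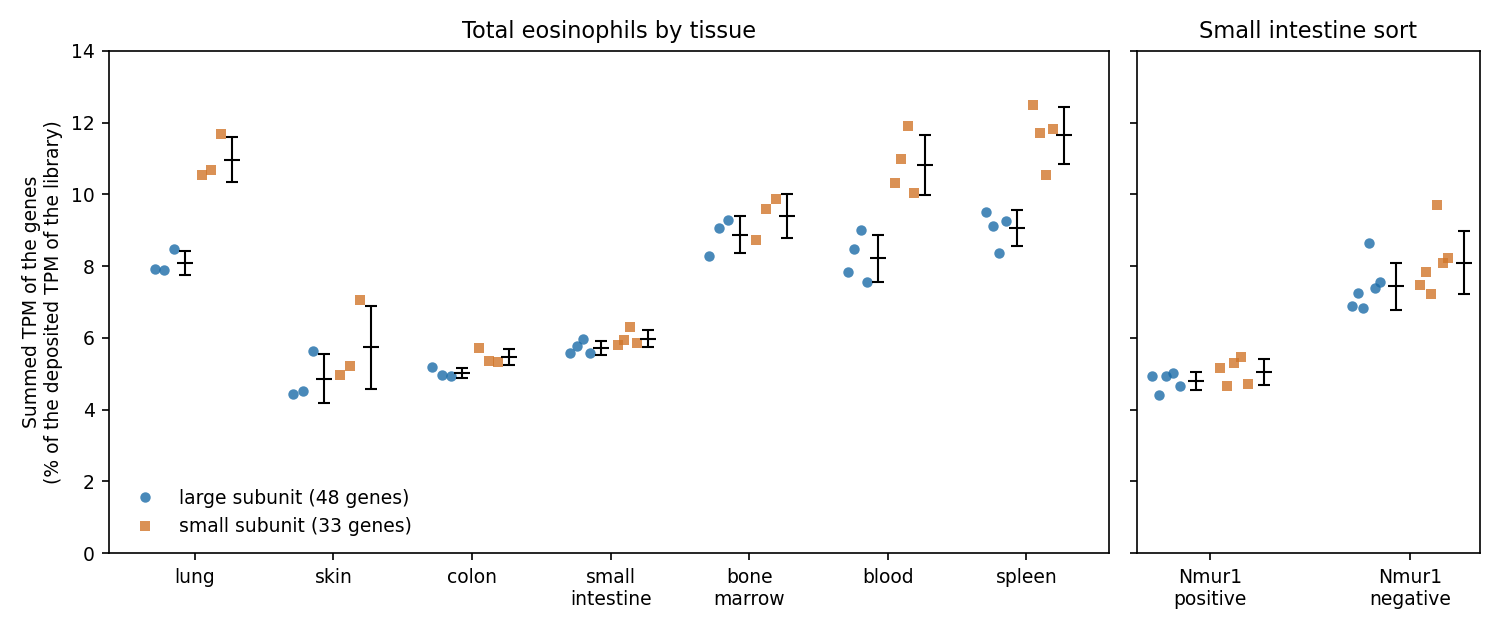
Share of the deposited TPM (percent) taken by the 48 large subunit and 33 small subunit genes in each library, by tissue and by Nmur1 sort; points are libraries and bars show mean ± SD. Skin, colon and small intestine lie below the other 4 tissues, and Nmur1 positive libraries lie below Nmur1 negative libraries.

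Large and small subunit genes did not keep a constant proportion. The 48 large subunit genes summed to less TPM than the 33 small subunit genes in all 7 tissue means and both sort means. The ratio of large to small was 0.738 ± 0.0125 in lung (SD, n = 3), 0.7598 ± 0.00723 in blood (SD, n = 4) and 0.779 ± 0.01301 in spleen (SD, n = 4). It was 0.854 ± 0.0499 in skin (SD, n = 3), 0.919 ± 0.0117 in colon (SD, n = 3), 0.958 ± 0.01103 in small intestine (SD, n = 4) and 0.945 ± 0.00605 in bone marrow (SD, n = 3). Thus marrow, whose total share was close to that of lung and blood, had a ratio close to that of colon and small intestine.

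Much of that difference lay in 3 small subunit genes. Rps27, Fau and Rps27a had the highest mean TPM of all members in the tissue table; Rps27a and Fau encode a ribosomal protein fused to ubiquitin or to a ubiquitin-like protein. The 3 genes together took 3.30% of TPM in lung, 3.16% in blood and 3.25% in spleen, and 1.56% in bone marrow, 1.31% in skin, 1.24% in colon and 1.25% in small intestine. Without them, the ratio was 1.06 in lung, 1.07 in blood, 1.08 in spleen, 1.10 in skin, 1.13 in bone marrow, 1.19 in colon and 1.21 in small intestine, a choice made after seeing the data. The tissue means then lay closer together, in the same order except that marrow came to lie below colon.

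**Figure D2:**
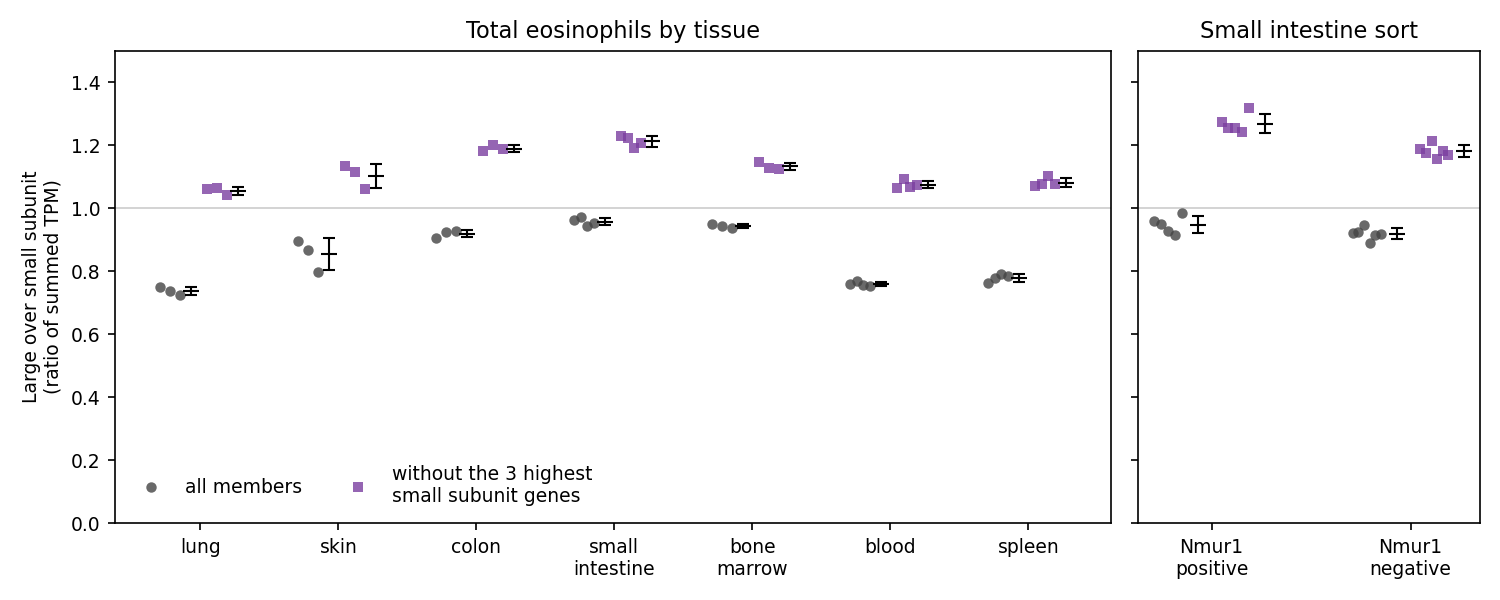
Ratio of the summed TPM of large to small subunit genes in each library, with all members and without the 3 small subunit genes of highest mean TPM; points are libraries and bars show mean ± SD. With all members the means of lung, blood and spleen lie between 0.738 and 0.779 and those of bone marrow, colon and small intestine between 0.919 and 0.958; without the 3 genes the gap narrows.

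Values of single members spanned a wide range. Per transcript length, mean TPM over tissues was highest for Rps27 (7022), Fau (6582), Rps27a (4880), Rps25 (3972) and Rps29 (3880). It was lowest for Rpl7l1 (42.5), a paralogue of Rpl7 known from human pre-ribosomes, followed by Rps27l (224), Rpl14 (231), Rpl22l1 (356) and Rps20 (394). Of the 81 members, 79 were at or above 100 TPM in all 24 tissue libraries, and the lowest value was 10.97 TPM, for Rpl7l1 in a lung library. Every member passed the filter on low values in both tables. RSEM shared reads between near-identical sequences, and 60 of the 81 members have pseudogenes named after them in the annotation (298 in all), so values of single members are uncertain to that extent.

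All 81 members differed among the 7 tissues in the limma F-test, against 81.1% of the 9806 genes tested. Each tissue was then set against the other 6, each of those weighted equally. Calls below have a limma adjusted p under 0.05 over all genes, on the log2(TPM + 1) scale. The median change of all genes was -0.57 in lung, 0.16 in skin, 0.09 in colon, 0.11 in small intestine, 0.08 in bone marrow, -0.04 in blood, 0.12 in spleen, -0.15 for barrier tissues and 0.22 in the Nmur1 sort. Values are therefore also given relative to this median gene where it lay more than 0.1 from 0, while calls test the change against 0.

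Lung eosinophils had more than 50% of the members of each subunit high and 6 members low, in libraries where fewer genes reached 1 TPM (7770 to 7876) than in any other tissue (8539 to 9325). Of 81 members 48 were higher and 6 lower, against 9.62% and 42.4% of all genes (large subunit 25 higher and 5 lower of 48, small subunit 23 higher and 1 lower of 33). The middle of the 81 changes was 0.29, or 0.87 relative to the median gene. Fau had 9695, 10472 and 11225 TPM in lung libraries, against a mean of 5935 TPM over the other 6 tissues (log2 change 0.95, 1.52 relative to the median gene, SE 0.0834, adjusted p = 2.63e-09). Rps27a averaged 8186 against 4328 TPM (log2 change 1.15, 1.72 relative to the median gene, SE 0.125, adjusted p = 7.79e-08), and Rps27 averaged 10287 against 6478 TPM (log2 change 0.77, 1.34 relative to the median gene, SE 0.105, adjusted p = 2.07e-06). These high small subunit values contrast with Rpl3, a large subunit protein near the peptidyl transferase centre.

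Rpl3 had 206, 139 and 217 TPM in lung, 220.2, 234, 236 and 227 TPM in blood and 318, 322, 321 and 342 TPM in spleen. It had 439.6, 447 and 325 TPM in skin, 577, 621 and 579 TPM in colon, 672, 696, 678 and 669 TPM in small intestine and 982, 1257 and 1282 TPM in bone marrow. Every marrow library was above, and every lung library below, all libraries of the other tissues. The change was in lung -1.41 (SE 0.111, adjusted p = 4.14e-10), the lowest of any member there, and in bone marrow 1.69 (adjusted p = 3.31e-12). The median gene lay at -0.57 in lung, so Rpl3 fell less far below the median gene than -1.41. Of the 6 members lower in lung, 4 (Rpl12, Rpl10a, Rpsa and Rpl14) lay above the median gene. Rpl12, a protein at the base of the stalk, lay at -0.52 but at 0.05 relative to the median gene, and after median-ratio scaling it was at -0.03 (adjusted p = 0.829). Median-ratio scaling called 75 members higher and 1 lower in lung.

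Skin eosinophils had most members low. Of the 81, 3 were higher and 72 lower, against 22.2% and 12.5% of all genes (43 of 48 large and 29 of 33 small subunit genes lower). The median member was at -0.62, or -0.78 relative to the median gene. Rpl22l1, a paralogue of Rpl22 with known roles in lymphocyte development, had 141, 126 and 108 TPM in skin, against a mean of 394 TPM elsewhere (log2 change -1.55, -1.71 relative to the median gene, SE 0.174, adjusted p = 1.14e-07), below every other library. Rpl22 itself averaged 266 against 418 TPM (log2 change -0.63, -0.79 relative to the median gene, SE 0.106, adjusted p = 4.39e-05). The 3 that were higher were Rps2, Rpl7l1 and Rps27l, a paralogue of Rps27 and a target of Trp53. Rps2, of the small subunit's mRNA entry channel, had 889.95, 946 and 955 TPM in skin, against a mean of 469 TPM elsewhere (log2 change 1.06, 0.90 relative to the median gene, SE 0.204, adjusted p = 0.000231), above every other library. Rpl7l1 averaged 85.03 against 35.4 TPM (log2 change 1.39, 1.23 relative to the median gene, SE 0.239, adjusted p = 5.88e-05), and Rps27l averaged 316 against 209 TPM (log2 change 0.69, 0.53 relative to the median gene, SE 0.168, adjusted p = 0.00251); the Rps27l call was lost after median-ratio scaling (adjusted p = 0.0501).

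Colon and small intestine both had most members low and Rpl3 high. In colon 1 member was higher and 65 lower, against 14.4% and 6.36% of all genes (36 large and 29 small subunit genes lower). In small intestine 4 were higher and 59 lower, against 24.7% and 16.1% (32 large and 27 small subunit genes lower). The median member was at -0.55 in colon and at -0.34 in small intestine, or -0.45 relative to the median gene there. Rps27a averaged 2030.5 TPM in colon against 5354 TPM elsewhere (log2 change -1.20, SE 0.125, adjusted p = 5.27e-08), and 2337 TPM in small intestine against 5303 TPM elsewhere (log2 change -0.96, -1.07 relative to the median gene, SE 0.111, adjusted p = 8.83e-08). The member that was higher in colon was Rpl3 (592 against 499.7 TPM, log2 change 0.55, SE 0.111, adjusted p = 0.0005999). In small intestine Rpl3, Rpl7l1, Rpl10 and Rpl12 were higher, with Rpl3 at 679 against 485 TPM (log2 change 0.78, 0.67 relative to the median gene, SE 0.0987, adjusted p = 4.11e-07) and Rpl10, which also lies near the peptidyl transferase centre, at 2628 against 2118 TPM (log2 change 0.32, 0.21 relative to the median gene, SE 0.06903, adjusted p = 0.000509). Rps27l, higher in skin, was the other way in small intestine, at 112 against 243 TPM (log2 change -1.09, -1.21 relative to the median gene, SE 0.149, adjusted p = 1.36e-06).

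Bone marrow eosinophils had the most members at their highest level, mainly large subunit genes. Of the 81, 64 were higher and 3 lower, against 22% and 19.2% of all genes (large subunit 42 higher and 0 lower, small subunit 22 higher and 3 lower). Their median change was 0.43. Rpl36a, on chromosome X, had 1089.5, 1172 and 1223 TPM in marrow, against a mean of 373 TPM elsewhere (log2 change 1.701, SE 0.1295, adjusted p = 5.64e-11). Rps20 averaged 848 against 318 TPM (log2 change 1.46, SE 0.107, adjusted p = 2.92e-11), and Rpl12 averaged 1136 against 423 TPM (log2 change 1.44, SE 0.102, adjusted p = 1.41e-11). For Rpl3, Rpl36a, Rps20 and Rpl12 every marrow library lay above every other tissue library. Rps19, the gene most often mutated in Diamond-Blackfan anaemia of people, averaged 1999 against 968 TPM (log2 change 1.05, SE 0.1103, adjusted p = 1.73e-08).

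The 3 members that were lower in marrow were abundant small subunit genes. Rps27 had 4419, 4803 and 5176 TPM in marrow, against a mean of 7392 TPM elsewhere (log2 change -0.52, SE 0.105, adjusted p = 0.000267). Fau averaged 4544 against 6922 TPM (log2 change -0.46, SE 0.0834, adjusted p = 7.83e-05), and Rps9 averaged 2856 against 3876 TPM (log2 change -0.33, SE 0.0753, adjusted p = 0.0009299). Across the 81 members, the marrow minus blood change went with a lower mean TPM (Pearson r = -0.66, Spearman rho = -0.69, n = 81), a description, since both come from the same libraries. Transcripts of cycling cells summed to 935 to 1035 TPM in marrow and 23.3 to 209 TPM in the other 6 tissues, and eosinophil granule and marker genes to 115992 to 161387 TPM in marrow and 3897 to 52144 TPM elsewhere. Their part in the marrow values was not tested.

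Blood and spleen eosinophils also had most members high. In blood 48 were higher and 9 lower, against 14.2% and 18.3% of all genes (large subunit 25 higher and 7 lower, small subunit 23 higher and 2 lower). In spleen 67 were higher and 2 lower, against 17.4% and 12.5% (large subunit 38 higher and 2 lower, small subunit 29 higher and 0 lower). The median change of members was 0.31 in blood and 0.41 in spleen, or 0.29 relative to the median gene. Rps27a averaged 7498 TPM in blood against 4443 TPM (log2 change 1.01, SE 0.111, adjusted p = 1.12e-07), and 7621 TPM in spleen against 4423 TPM (log2 change 1.03, 0.91 relative to the median gene, SE 0.111, adjusted p = 8.75e-08). Rps2, above all others in skin, averaged 288 TPM in blood against 577 TPM (log2 change -1.005, SE 0.181, adjusted p = 0.000118). The 2 that were lower in spleen were Rpl3 and Rpl7l1; the Rpl7l1 call (adjusted p = 0.01301) was lost without spleen replicate 1 (adjusted p = 0.101). These contrasts share libraries with each other.

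Tissues were also compared pair by pair. More than 50% of members were called in 14 of the 21 pairs, and more than 50% of all genes in 2 (9.52% of pairs). Blood against spleen called 0 higher and 4 lower members (0.235% and 0.857% of all genes), of which Rpl10a changed by -0.69 (adjusted p = 0.000338). Lung against blood called 2 higher, Rpl22l1 and Rps2, and 1 lower, Rpl37 (8.99% and 26.7% of all genes). Skin against colon called 3 higher and 4 lower (8.9% and 9.33%), and colon against small intestine 0 higher and 6 lower (7.1% and 5.63%). Lung against bone marrow called 15 higher and 34 lower (14.4% and 38.9%). Bone marrow against blood called 33 higher and 11 lower (19.3% and 15.3%). A pair that called few members was not shown to be equal.

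With the 4 barrier tissues set against marrow, blood and spleen, 2 members were higher and 76 lower, against 22.4% and 31.1% of all genes (44 of 48 large and 32 of 33 small subunit genes lower). The median member was at -0.60, or -0.45 relative to the median gene. Lung shared little of this. Its median member was at 0.01 against blood, -0.13 against spleen and -0.13 against bone marrow (0.43, 0.44 and 0.46 relative to the median gene). Against blood, the median member was at -0.79 in skin, -0.75 in colon and -0.56 in small intestine (-0.96, -0.85 and -0.70 relative to the median gene). For 0 of 81 members did the barrier and other libraries not overlap (2.87% of all genes lay wholly above and 0.704% wholly below). Rpl37 averaged 446 TPM in barrier tissues against 895 TPM (log2 change -1.02, -0.86 relative to the median gene, SE 0.0936, adjusted p = 1.03e-09). Rpl7l1 and Rps2 were the 2 that were higher, with 630.2 against 409 TPM for Rps2 (log2 change 0.64, 0.79 relative to the median gene, SE 0.137, adjusted p = 0.000358). Rpl3, Rpl10 and Rpl22l1 were not called (log2 changes -0.10, -0.02 and -0.12, or 0.06, 0.13 and 0.03 relative to the median gene).

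**Figure D3:**
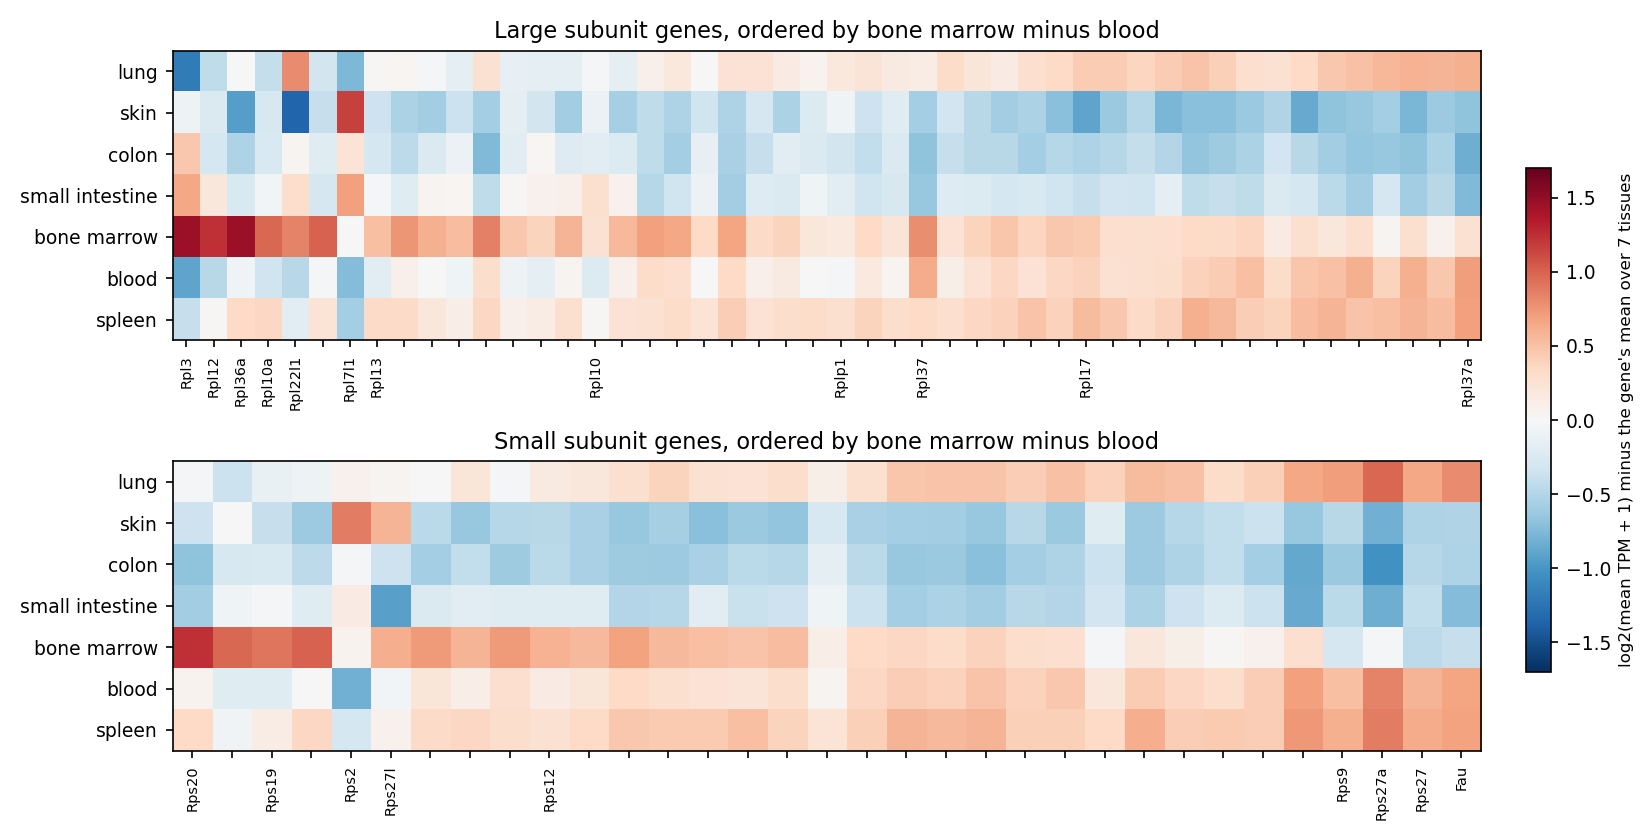
Change of each of the 81 members in the 7 tissues, as log2(mean TPM + 1) minus the gene's mean over tissues, ordered by bone marrow minus blood, with part of the genes labelled. Most members are low in skin, colon and small intestine, and large subunit genes such as Rpl36a, Rpl3 and Rpl12 are high in bone marrow, where Rps27, Fau and Rps9 are low.

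Single members also moved against the other ribosomal genes. Scaling each library to its median ribosomal protein gene centres the members and not other genes. The 90.3% of all genes that differed among tissues after it (81.1% before) is therefore no background for the member count. When each library was so scaled, 65 of 81 members still differed among tissues, 42 of 48 large and 23 of 33 small subunit genes. The widest range of scaled tissue means was that of Rpl7l1 (2.72 on the log2 scale), followed by Rps2 (2.51), Rpl3 (2.43), Rps27l (1.703), Fau (1.55), Rpl22l1 (1.46), Rps27 (1.45) and Rpl12 (1.42). Among the narrowest were those of Rpl5 and Rps7 (0.21 each) and Rpl11 (0.25). Rpl5 and Rpl11 travel together with a small rRNA and can bind Mdm2. Of the 8 with the widest ranges, Rpl7l1, Rps27l and Rpl22l1 are paralogues of other members.

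Pyrimidine runs near the start of these genes were longer than near the start of other genes. The search did not ask whether a run lies at the start itself, so it does not measure the TOP element. Of 81 members, 61 had a RefSeq promoter entry (build GRCm38.p6). In the stretch from 60 bases before to 30 bases after the start, the longest unbroken run of C or T had a median of 10 bases in members, against 6 in 7932 other genes of the tissue table and 7 in all 27025 promoters. A run of at least 10 was present in 55.7% of members, against 18.6% of the others and 19.2% of all promoters. The motifs CTTTCC and CTCTTT, counted on the gene's strand in the same stretch and able to overlap each other, were each in 21.3% of members, against 4.69% and 3.59% of the others and 4.93% and 4.3% of all promoters. Over 300 bases and both strands, CCGGAAG, the core of ETS family sites, was in 41% of members, 22.9% of the others and 9.93% of all promoters. CACGTG, the E-box of Myc, was in 9.84%, 12.3% and 8.09%, and AAGATGGC in 11.5%, 5.96% and 3.19%. GGGCGG was in 63.9%, 70% and 38.2%, and TATAAA in 11.5%, 8.45% and 15.7%. These matches describe letters in the sequence and not use of a site.

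Promoters are shown for 3 small subunit genes that were the lowest in marrow relative to other members, and for 3 genes with large changes in the sort described next. Each covers 60 bases before to 20 bases after the RefSeq start, on the gene's strand, with the longest C or T run of that stretch in capitals. The marrow genes are Rps27 (chr3:90213629-90213708, minus strand), Fau (chr19:6057887-6057966, plus strand) and Rps9 (chr7:3703981-3704060, plus strand). The sort genes are Rps19 (chr7:24884532-24884611, plus strand), Rpl13 (chr8:123102290-123102369, plus strand) and Rps2 (chr17:24720003-24720082, plus strand).
Rps27: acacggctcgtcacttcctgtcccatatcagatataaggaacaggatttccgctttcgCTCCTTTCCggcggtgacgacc
Fau: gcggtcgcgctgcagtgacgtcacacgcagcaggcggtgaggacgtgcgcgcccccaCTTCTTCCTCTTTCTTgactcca
Rps9: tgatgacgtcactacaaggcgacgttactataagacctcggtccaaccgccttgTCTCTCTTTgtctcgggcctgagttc
Rps19: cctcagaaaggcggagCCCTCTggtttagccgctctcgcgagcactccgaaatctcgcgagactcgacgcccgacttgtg
Rpl13: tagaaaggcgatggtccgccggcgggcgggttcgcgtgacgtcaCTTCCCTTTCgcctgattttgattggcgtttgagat
Rps2: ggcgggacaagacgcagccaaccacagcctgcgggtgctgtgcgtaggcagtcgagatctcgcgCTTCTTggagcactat
The run spans 16 bases in Fau, 9 in Rps27 and Rps9, 10 in Rpl13 and 6 in Rps19 and Rps2. For Rps19, 3 starts are listed and only the first is shown, where the run begins at base -44 from the start. The run lengths of members and other genes above took the longest run over all listed starts of a gene.

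In small intestine eosinophils, cells positive for Nmur1 had lower ribosomal protein mRNA than negative cells. The members took 10.1, 9.07, 10.2, 10.5 and 9.38% of TPM in the 5 positive libraries, against 14.1% to 18.4% in the 6 negative libraries (median 15.3%). Every positive library lay below every negative one. The highest negative library was replicate 5, at 18.4%, and the negative mean was 15.5% with it and 14.96% without it. In limma 0 members were higher and 77 of 81 lower, against 9.18% and 5.25% of the 7982 genes tested (45 of 48 large and 32 of 33 small subunit genes). For 74 members every positive library lay below every negative library, which held for 3.71% of all genes. The median member was at -0.70, or -0.91 relative to the median gene.

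Rps19 had the largest change of any member in the sort. It had 378, 349, 377, 400.1 and 452 TPM in positive libraries, against 1038 to 1483 TPM with a median of 1261 TPM in negative libraries (log2 change -1.66, -1.87 relative to the median gene, SE 0.119, adjusted p = 1.62e-07), with no overlap. Rps2 had 325, 274, 157, 342 and 288 TPM in positive libraries, against 422 to 931 TPM with a median of 741 TPM in negative libraries (log2 change -1.32, -1.54 relative to the median gene, SE 0.215, adjusted p = 0.000524). Rpl13 had 744, 617, 640.3, 633 and 839 TPM in positive libraries, against 1269.5 to 2038 TPM with a median of 1693 TPM in negative libraries (log2 change -1.26, -1.47 relative to the median gene, SE 0.1298, adjusted p = 9.48e-06). These 3 genes have 14, 11 and 6 named pseudogenes. Rps19 lies at chr7:24884371-24889806 (plus strand), Rps2 at chr17:24718116-24721929 (plus strand) and Rpl13 at chr8:123102350-123105244 (plus strand) in the mm10 annotation. Their positive libraries lay below all negative libraries, as for most members.

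The stalk proteins, Rpsa, Rpl5 and Rpl11 were lower too. Rplp0, Rplp1 and Rplp2, the stalk that recruits elongation factors, averaged 881, 1976 and 1442 TPM in positive libraries, against 1598, 3617 and 2478 TPM in negative libraries (adjusted p at most 0.000205). Rpsa, also known as a laminin receptor, averaged 538 against 1083 TPM (log2 change -1.01, -1.22 relative to the median gene, SE 0.119, adjusted p = 3.99e-05). Rpl5 averaged 519.7 against 875 TPM, and Rpl11 719 against 1071 TPM (adjusted p = 8.53e-05 and 0.00133). The most abundant gene, Rps27, averaged 4556 against 6181 TPM (log2 change -0.44, -0.66 relative to the median gene, SE 0.123, adjusted p = 0.0234), a call lost without positive replicate 3 or 8 (adjusted p = 0.0619 and 0.0639).

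In all, 4 members were not called in the sort. Rpl3 averaged 579 TPM in positive libraries against 694 TPM in negative libraries (log2 change -0.26, -0.48 relative to the median gene, adjusted p = 0.0958), and Rpl37 averaged 249.6 against 334 TPM (-0.40, -0.62 relative to the median gene, adjusted p = 0.0842). Both were called lower after median-ratio scaling (adjusted p = 0.00896 and 0.0261). Rpl3 was also called lower with members left out of the sum used for scaling (adjusted p = 0.048). Rpl37 was also called lower with a replicate block (adjusted p = 0.0496) and without negative replicate 4 (adjusted p = 0.0316). The others were the paralogues Rpl7l1 (50.6 against 53.6 TPM, adjusted p = 0.707) and Rps27l (99.6 against 139.7 TPM, log2 change -0.65, -0.86 relative to the median gene, SE 0.397, adjusted p = 0.296). The paralogue Rpl22l1 was called lower beside Rpl22, at 399 against 551 TPM (adjusted p = 0.0252) and 289.6 against 468 TPM (adjusted p = 0.00347). The Rpl22l1 call was lost when any 1 of 5 libraries was left out (adjusted p = 0.0507 to 0.0657). The call of Rpl10 (2136 against 2658 TPM, adjusted p = 0.0377) was lost when any 1 of 8 libraries was left out (adjusted p = 0.0507 to 0.0973) and after quantile normalization (adjusted p = 0.7696).

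Scaling the sorted libraries to their median ribosomal protein gene set the members near 0 (median 0.04) and moved all genes to a median of 0.95. The shares of all genes called after it are therefore no background for the member counts, and an even split of members is in part set by it. Relative to the median ribosomal protein gene of each library, 7 members were higher and 7 lower in positive libraries (71% and 1.17% of all genes). Those lower were Rps19 at -0.93 (adjusted p = 1.53e-05), Rps2 at -0.59 (adjusted p = 0.0343), Rpl13 at -0.53 (adjusted p = 0.002805), Rpl10a at -0.35 (adjusted p = 0.0119), Rpsa, Rpl32 and Rps28. Those higher were Rpl7l1 at 0.60 (adjusted p = 0.0295), Rpl3 at 0.47 (adjusted p = 0.00413), Rpl10 at 0.41 (adjusted p = 0.00352), Rps9, Rpl37, Rps27 and Rps29. With the replicate number as a block, 16 were higher and 6 lower. The 14 calls came to 9 without positive replicate 8 and 8 without negative replicate 8. The large to small ratio was 0.948 ± 0.0269 in positive libraries (SD, n = 5) and 0.9197 ± 0.0177 in negative libraries (SD, n = 6), and without Rps27, Fau and Rps29, the 3 small subunit genes of highest mean TPM there, 1.27 and 1.18. Member changes in the sort did not follow those between barrier and other tissues (Pearson r = 0.11, Spearman rho = 0.15, n = 81, a description over members that share libraries). Retnlg averaged 7166 TPM in positive and 10874 TPM in negative libraries, and the other 5 measured neutrophil markers added little, 365 to 645 TPM in positive and 525.6 to 828 TPM in negative libraries. The 5 measured macrophage and monocyte markers summed to 372 to 508 TPM in positive and 256 to 314.5 TPM in negative libraries. The 1 measured stroma and endothelium gene had 155 to 235 TPM in positive and 78.0 to 145 TPM in negative libraries. Sums of the other measured marker lists overlapped between the groups. The part of these markers was not tested.

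**Figure D4:**
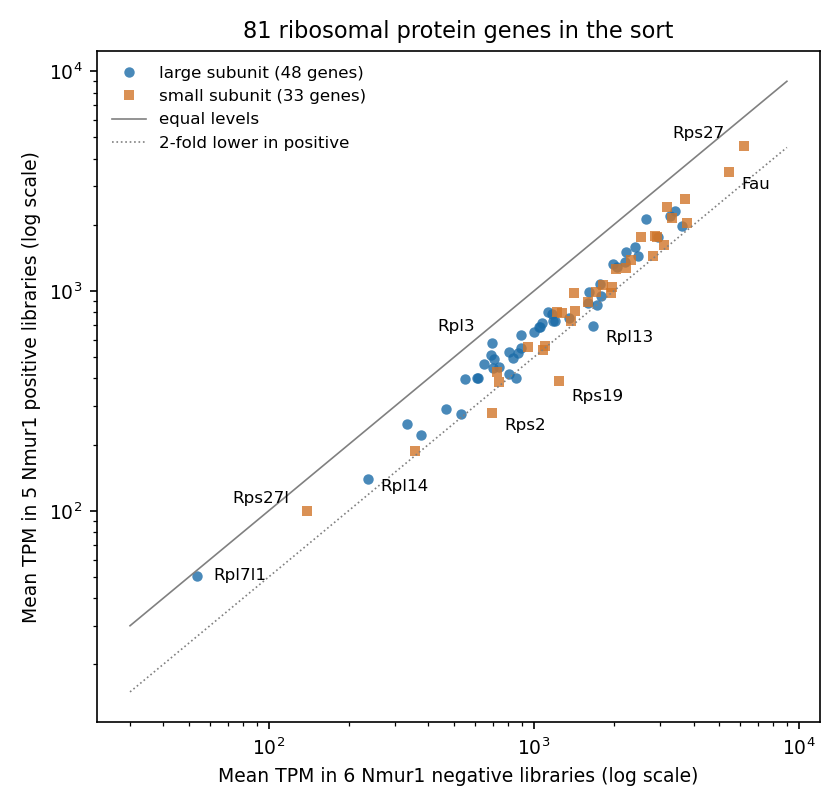
Mean TPM of each member in Nmur1 positive and Nmur1 negative libraries, both axes on a log scale, with lines of equal level and of 2-fold change. All 81 members lie on the side of higher level in negative libraries, Rps19 farthest from the line of equal level, while Rpl3 and Rpl7l1 lie close to it.

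Ribosome assembly factors had a median change of the opposite sign to that of the members in 6 of 7 tissues. Of 74 ribosome assembly factors 38 were higher and 2 lower in small intestine, 26 and 0 in skin and 21 and 3 in colon, the 3 tissues where most members were lower. The shares higher were 51.4, 35.1 and 28.4%, against 24.7, 22.2 and 14.4% of all genes. Among the assembly factors Tsr1, a factor of small subunit maturation, averaged 18.4 TPM in small intestine against 4.62 TPM (log2 change 2.15, 2.04 relative to the median gene, SE 0.326, adjusted p = 6.44e-06). In lung 2 assembly factors were higher and 46 lower, in blood 1 and 37, in spleen 1 and 21, and in bone marrow 17 and 3. The shares lower were 62.2% in lung, 50% in blood and 28.4% in spleen, against 42.4, 18.3 and 12.5% of all genes. In bone marrow 23% were higher, near the 22% of all genes, and 4.05% lower, against 19.2%. Nop58, a core protein of snoRNA complexes, averaged 15.4 TPM in blood against 89.6 TPM (log2 change -2.35, SE 0.203, adjusted p = 1.84e-09). Their median was -1.07 in lung, 0.59 in skin, 0.54 in colon, 0.70 in small intestine, 0.32 in bone marrow, -0.66 in blood and -0.30 in spleen, beside the medians of all genes given above. In the sort 5 of 70 were higher and 3 lower (7.14% and 4.29%, against 9.18% and 5.25% of all genes), with a median of -0.03.

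Mitochondrial ribosomal proteins, made for the separate ribosome of mitochondria, served as a comparison, with the all-gene shares called in each comparison given above for reading the counts. Of 78 measured, 41 were higher and 0 lower in bone marrow, 1 and 56 in lung, 23 and 4 in skin, 9 and 11 in colon, 12 and 14 in small intestine, 11 and 14 in blood and 15 and 6 in spleen. The lung and marrow shares (71.8% lower and 52.6% higher) were above those of all genes, while small intestine (15.4% higher and 17.9% lower) was not above them in the higher direction and was close in the lower one. In the sort 2 of 77 were higher and 5 lower (2.6% and 6.49%). Of 31 proteasome subunit genes 0 were higher and 20 lower in lung, 18 and 0 in skin, 6 and 3 in colon, 10 and 5 in small intestine, 16 and 0 in bone marrow, 1 and 19 in blood, 2 and 8 in spleen and 0 and 1 in the sort. Of 18 elongation factors and other TOP mRNAs 4 were higher and 7 lower in lung, 0 and 8 in skin, 1 and 6 in colon, 4 and 5 in small intestine, 10 and 1 in bone marrow, 7 and 4 in blood, 6 and 1 in spleen, and 0 and 8 in the sort. Among ribosomal genes outside the rule, Rack1, a scaffold on the small subunit, averaged 284 TPM in positive libraries against 552 TPM in negative libraries (log2 change -0.95, -1.17 relative to the median gene, SE 0.119, adjusted p = 6.10e-05), and 3 of 5 were lower and 0 higher. RNA polymerase I machinery had 0 of 11 genes called in either direction in the sort, and of 26 mTORC1 and TOP regulators 1 was higher and 1 lower.

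Myc, the transcription factor known to drive ribosome making, differed along with the members in the sort. It averaged 4.37 ± 2.35 TPM in positive libraries (SD, n = 5; 1.52 to 7.17 TPM), against 65.7 ± 14.5 TPM in negative libraries (SD, n = 6; 44.7 to 85.96 TPM). The groups did not overlap (log2 change -3.74, -3.95 relative to the median gene, SE 0.306, adjusted p = 6.98e-07). In tissues it averaged 1.06 TPM in skin against 20.1 TPM elsewhere (log2 change -3.29, -3.45 relative to the median gene, SE 0.335, adjusted p = 2.59e-08). In small intestine, where 59 members were lower, Myc averaged 37.6 TPM against 14.02 TPM (log2 change 1.74, 1.63 relative to the median gene, SE 0.298, adjusted p = 3.34e-05). Its part in the ribosomal values was not tested.

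**Figure D5:**
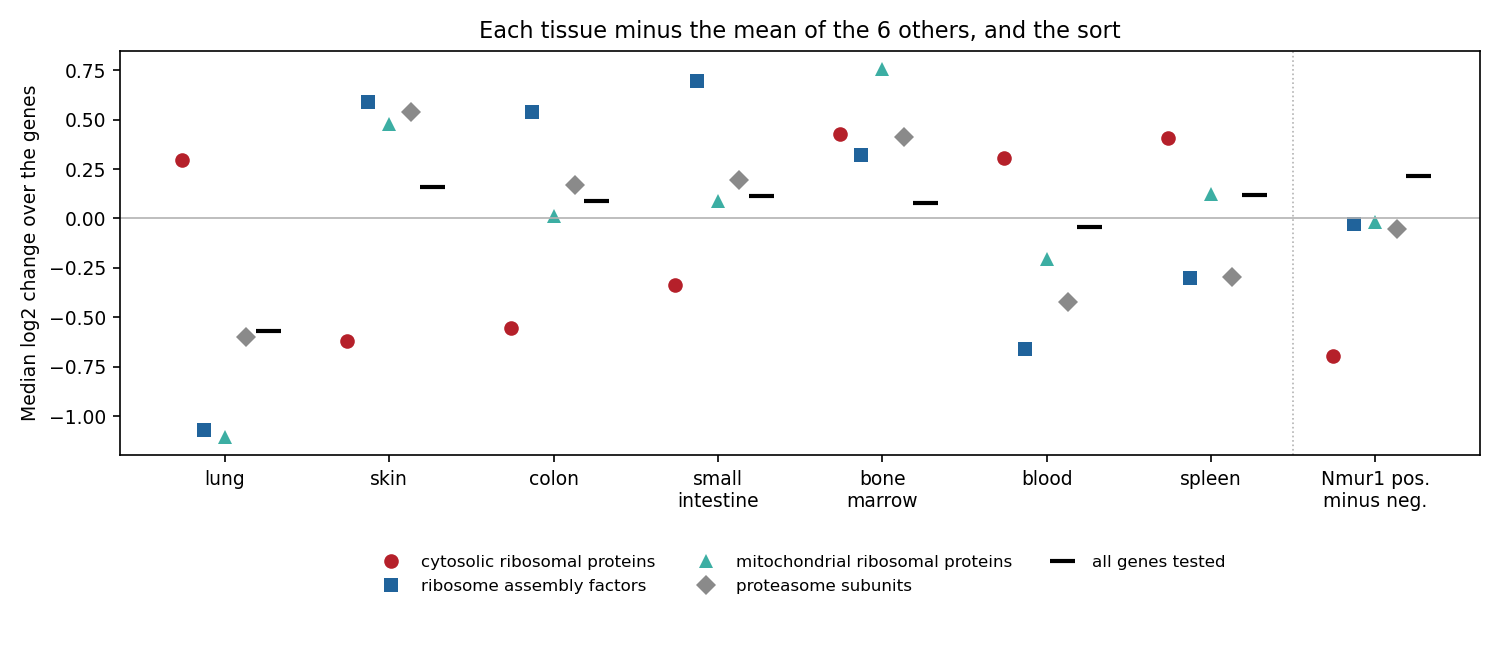
Median log2 change of ribosomal protein genes, assembly factors, mitochondrial ribosomal proteins, proteasome subunits and all genes, for each tissue against the other 6 and for Nmur1 positive against negative libraries. Assembly factors lie above the members in skin, colon, small intestine and the sort, and below them in lung, bone marrow, blood and spleen.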

How the data were processed

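Libraries were made with Smart-seq2 from sorted eosinophils, per the labels' protocols. The authors deposited TPM values per gene in 2 tables, made with cutadapt 2.10, STAR 2.7.5c and RSEM 1.3.3 on mm10, per the submitters' processing notes. TPM keeps no depth, so depth and counting error are unknown; columns summed to 796048 to 890768 TPM (tissues) and 799585 to 863816 TPM (sort), because some genes had been left out. The sources used here give neither the rule for that nor the annotation.

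Groups came from the sample titles. The fits, 1 for each table, used log2(TPM + 1) and the package limma (version 3.58.1, R 4.3.3; eBayes with trend, two-sided, Benjamini-Hochberg over all genes tested). Genes that reached 1 TPM in fewer than 3 tissue or 5 sorted libraries were left out, leaving 9806 and 7982 genes. A change on this scale understates that of low genes. The fits were tested only on simulated data with independent noise and with added changes larger than those of most members. That test does not cover small changes or libraries that deviate together. Values were also scaled to the median member of each library and refitted. Sorted libraries of equal replicate number tended to deviate together: deviations of all 4 same-numbered pairs correlated above 0.1 (r = 0.164 to 0.225, against a median of -0.0429 for different numbers, of which 3 of 26 were also above 0.1, the highest 0.194). The main sort fit used no block, so its p-values ignore any pairing. A refit with the replicate number as a block is reported as an alternative.

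The members, lists and tests were chosen with earlier results of these data known. Genes named were the 3 largest called changes per direction in each comparison, paralogues and genes with known roles, and the 5 highest and lowest members; the text names part of these, and a few members are not reported here. Gene positions and pseudogene names are those of GENCODE vM21 (GRCm38), and promoters those of RefSeq. The authors' single-cell sample was not analysed here.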

Additional observations from a re-analysis of the deposited data

Results flagged for a closer look

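Dixon's criterion was applied to 130 groups of 4 to 6 libraries, covering the summed measures and 21 named genes, and marked 8 values that stood apart from the rest of their group. Chance marks about 1 in 20 groups. Of the 8 values, 4 came from Nmur1 negative replicate 5, which was high for Rps27 (8153 TPM, others 5597 to 6110), Rps9 (3790.2 TPM, others 3028 to 3113), Rplp1 (4679 TPM, others 3116 to 3592) and Rpl36a (674 TPM, others 449.9 to 533). Rps2 was high in spleen replicate 2 (591 TPM, others 344 to 358) and Rpl17 in spleen replicate 1 (1613 TPM, others 1052 to 1089). Rps19 was low in blood replicate 4 (787 TPM, others 969 to 978). The ratio of large to small subunit genes without the 3 highest small subunit genes was high in spleen replicate 3 (1.10, others 1.07 to 1.08).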

How the results depend on the processing

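Alternatives were other pseudocounts, filters, scalings, robust eBayes, a replicate block and leaving out each library. Over 57 reported gene changes and 1673 alternatives, 1645 kept their call or lack of one, 23 lost the call and 5 gained one. With a call in either fit, 0 reversed in sign. Sign changes of genes called in neither fit were not counted. The cause was not tested. Over all members, 31 of 54 lung calls, 44 of 57 in blood, 46 of 69 in spleen, 49 of 63 in small intestine and 67 of 77 in the sort held in every alternative. Signs reversed for 4 lung members (3 of them, Rpl10a, Rpl14 and Rpsa, under median-ratio scaling) and 1 blood member. Median-ratio scaling lost 22 spleen calls, leaving 45 members higher and 3 lower. The direction of the member median was kept under every scaling tried. Median-ratio scaling called 75 members higher in lung. With the replicate block, 22 members were called in the scaled sort, 16 higher and 6 lower; the block changed no other count by over 1.5 times. In tissues same-numbered libraries did not deviate together (0 of 62 pairs above 0.1; -0.0454 to 0.0877), and with the block 13 pairs of tissues had over 50% of members called. Leaving out haemoglobin genes put the blood share at 20.96%, and leaving out Rps27 put the shares at 17.9% in lung, 9.96% in colon and 11.1% in small intestine. Without the 3 highest small subunit genes, chosen after seeing the data, the ratios were 1.06 (lung), 1.10 (skin), 1.19 (colon), 1.21 (small intestine), 1.13 (bone marrow), 1.07 (blood), 1.08 (spleen), 1.27 (Nmur1 positive) and 1.18 (Nmur1 negative).

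Without each library in turn, members called numbered (in the more frequent direction, or both for scaled values and differences among tissues) 37 to 50 in lung, 69 to 73 in skin, 59 to 68 in colon, 50 to 62 in small intestine, 56 to 66 in bone marrow, 39 to 50 in blood, 59 to 68 in spleen, 75 to 76 for barrier tissues, 73 to 77 in the sort, 81 among tissues (62 to 70 when scaled) and 8 to 13 in the scaled sort (9 without Nmur1 positive replicate 8, 8 without negative replicate 8), and 12 to 15 tissue pairs had over 50% of members called. The shares were 18.5% to 19.4% (lung), 9.56% to 11.2% (skin), 10.3% to 10.6% (colon), 11.5% to 11.8% (small intestine), 17.8% to 18.9% (bone marrow), 18.4% to 19.5% (blood), 20.3% to 21.3% (spleen), 9.69% to 10.0% (positive) and 14.96% to 15.8% (negative). No depth was available, so the precision of low members such as Rpl7l1 is unknown.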
